A study of Homo sapiens with 6 samples.

Results

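The 32 genes described here encode the machinery that takes pyruvate into mitochondria, oxidises it to acetyl-CoA and turns the tricarboxylic acid (TCA) cycle, with the enzymes that feed and drain the cycle. They were taken by gene symbol from a list of members, and all 32 were found among the 58302 genes of the table. Their RNA was measured by polyA sequencing in ME180, an established human cervical cancer line of epithelial morphology. Small interfering RNA was transfected for 48 h: a control in 3 libraries (siControl), and in the 3 others one directed at SGK1, the serum and glucocorticoid regulated kinase (siSGK1). The series calls the 3 libraries of each group biological repeats and numbers them 2, 3 and 4 in both groups. No other agent, allele or untransfected group is named, and siRNA sequences were not used here. The comparison asks which of these genes have another RNA level when SGK1 is knocked down.

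Pyruvate made by glycolysis crosses the inner mitochondrial membrane through a carrier built of MPC1 and MPC2. The pyruvate dehydrogenase complex then converts it to acetyl-CoA; its kinases switch the complex off by phosphorylation and its phosphatases switch it on again. Citrate synthase joins acetyl-CoA to oxaloacetate, and the cycle returns to oxaloacetate through isocitrate, alpha-ketoglutarate (also called 2-oxoglutarate), succinyl-CoA, succinate, fumarate and malate while reducing the carriers that the respiratory chain oxidises. Anaplerotic enzymes refill the cycle, cataplerotic enzymes draw intermediates out of it, and the malate-aspartate shuttle moves reducing equivalents between cytosol and mitochondria.

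The libraries held 27262794 to 27874948 reads assigned to genes in siControl and 28405647 to 35242643 in siSGK1. SGK1 itself fell from 4.12 ± 0.19 to 1.70 ± 0.12 FPKM (a level per gene length and per sequenced library, mean ± SD, n = 3 each), to 41.2% of siControl; limma gave a log2 change of -1.07 (SE 0.07, adjusted p = 1.88e-05). The epithelial and squamous markers EPCAM, CDH1 and TP63 had mean levels of 36.8 to 43.4 FPKM in both groups, and PECAM1, an endothelial marker, was listed at 0 in all 6 libraries. Of the 8 epithelial and squamous markers, the keratins KRT5, KRT14, KRT8 and KRT19 were called lower in siSGK1. VIM and PTPRC stayed at or below 0.043 FPKM in every library, COL1A2 at or below 0.0061 and CD14 between 0.081 and 0.288, whereas COL1A1 lay between 4.69 and 5.70 FPKM. Reads of mitochondrial genes made up 4.16% to 4.40% of each siControl library and 3.38% to 3.66% of each siSGK1 library; the part of this in the results below was not tested.

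Of the 32 genes, 31 had a mean of at least 1 FPKM and were tested; the one left out was ME3, with 1 to 14 reads per library. In siSGK1, 16 of the 31 were called lower, 0 were called higher and 15 were not called, at an adjusted p under 0.05 in a limma fit over 11945 genes. Over all genes of that fit, 22.7% were called lower and 17.9% higher, so the share of 51.6% called lower stands beside a background of 22.7%. At an unadjusted p under 0.05, 18 of the 31 were lower and 1, PDHX, was higher, beside 26.7% lower and 22.4% higher among the genes of the fit. The median log2 change of the 31 genes was -0.15 and that of all tested genes -0.006. The 3 siSGK1 libraries lay below the 3 siControl libraries without overlap for 19 of the 31 (61.3%), against 28.8% of all tested genes, and above them for 0 of the 31, against 24.6%.

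The changes were small. The fitted log2 changes ran from -0.53 for PDP2 to 0.18 for PDHX, with 25 negative and 6 positive values. The summed level of the 32 genes was 886, 905 and 895 FPKM in siControl replicates 2, 3 and 4 and 818, 760 and 801 in the siSGK1 replicates. Every siSGK1 sum lay below every siControl sum, with means of 896 ± 9.4 and 793 ± 29.7 FPKM (SD, n = 3 each), or 88.6% of siControl. Over all genes of the table the summed FPKM was 362480, 363773 and 356383 in siControl replicates 2, 3 and 4. In the siSGK1 replicates it was 320711, 300191 and 319196, so a lower sum was not particular to these genes. The siSGK1 replicate 3 gave the lowest sum, both of the 32 genes and of all genes. It was the lowest library of its group for 17 of the 31 tested genes and for 9 of the 11 with a mean of at least 30 FPKM. How often it was the lowest among all tested genes was not counted. Without that library 13 genes were called lower and 0 higher, and the median log2 change was -0.16. RNA from a bulk culture cannot tell less RNA per cell from fewer cells that hold it.

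**Figure D1:**
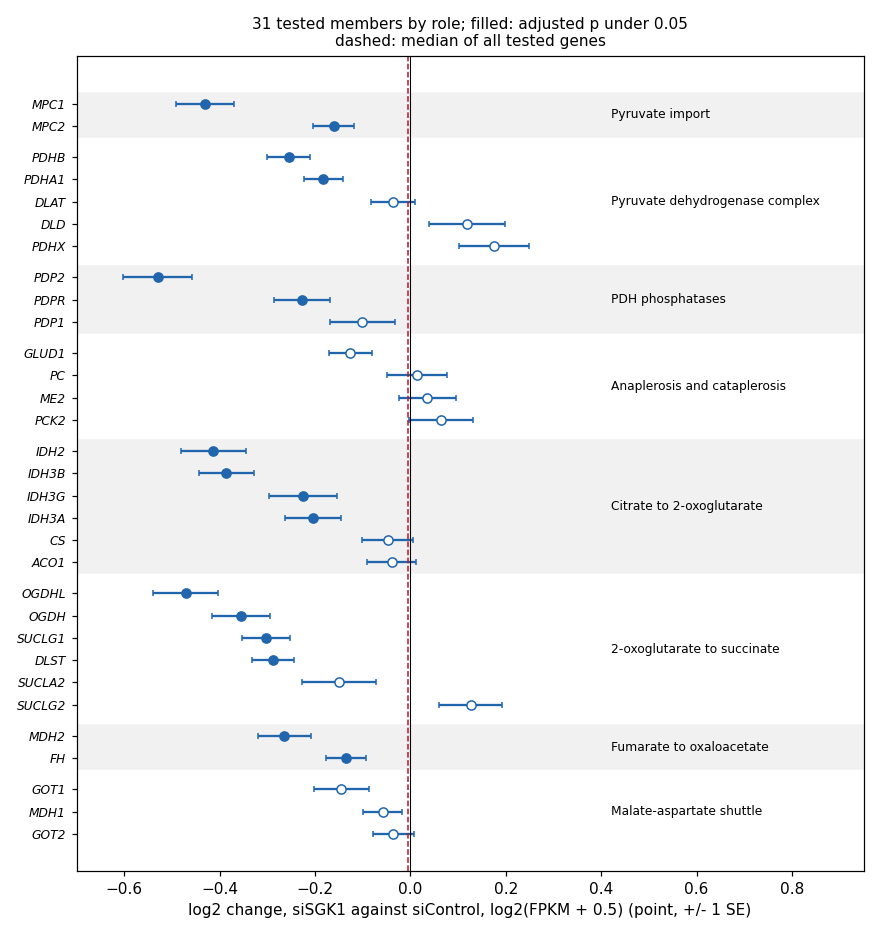
Log2 change in siSGK1 against siControl on the log2(FPKM + 0.5) scale (horizontal axis) for the 31 tested genes, grouped by role; points are limma estimates with bars of 1 SE, filled where the adjusted p was under 0.05, and the dashed line is the median of all tested genes. All 16 filled points lie to the left of 0, and the 6 points to the right of 0 are open; under TPM scaling the median of the 31 genes turned to 0.04.

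How many genes counted as lower depended on how the libraries were scaled. The deposited FPKM carry size factors, which place the median gene near 0. Scaling by total reads moved the median log2 change of all tested genes to 0.12, and scaling to TPM, in which every library has the same summed level per gene length, moved it to 0.19. The median of the 31 genes moved with it, to -0.02 and 0.04. Relative to the median of all genes it was thus -0.14 as deposited, -0.14 by total reads and -0.15 by TPM, and 25 of the 31 genes lay below that median under each of these scalings. Quantile normalization gave a difference of -0.12, with 22 of the 31 below. The calls split into 16 lower and 0 higher as deposited, 12 and 1 after quantile normalization, 10 and 6 by total reads, and 7 and 10 by TPM. The genes that lost their lower call by total reads were FH, IDH3A, IDH3G, MPC2, PDHA1 and PDPR, and TPM scaling took DLST, MDH2 and PDHB as well. DLD, GOT2, PC, PCK2, PDHX and SUCLG2 were called higher by total reads, and TPM scaling added CS, DLAT, MDH1 and ME2. Over all tested genes the split went from 22.7% lower and 17.9% higher to 19.9% and 20.9% after quantile normalization. It was 12.9% and 36.1% by total reads, and 9.80% and 47.3% by TPM.

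The genes called lower under all 4 scalings numbered 7: PDP2, OGDHL, MPC1, IDH2, IDH3B, OGDH and SUCLG1. These are also the 7 called genes whose log2 change was at least 0.3 in size. All of them kept direction and call in each of the 118 values computed under other settings, including the loss of any single library.

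**Figure D2:**
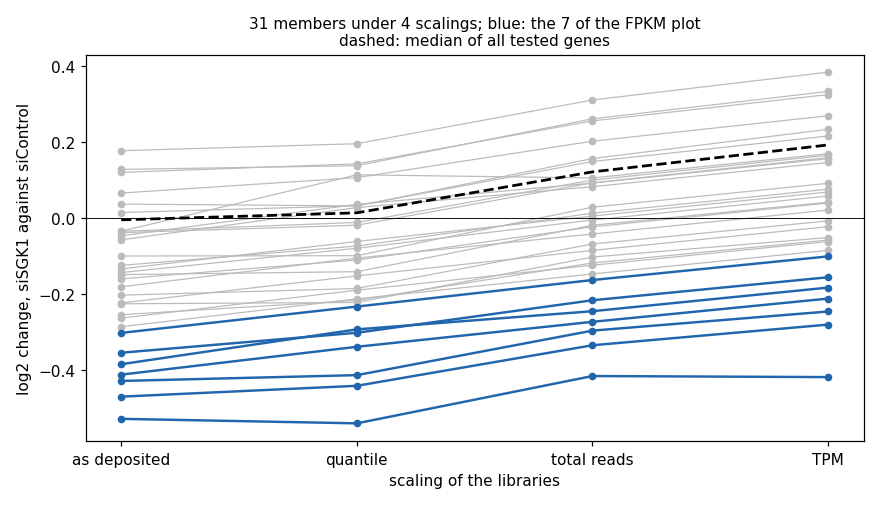
Log2 change in siSGK1 against siControl (vertical axis) of each of the 31 tested genes under 4 scalings of the same libraries (horizontal axis), with the 7 genes of at least 0.3 in size in blue and the median of all tested genes dashed. The blue lines stay below 0 under all 4 scalings, while the dashed median moves up from -0.006 as deposited to 0.19 under TPM and the grey genes split to both sides of 0.

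Counts by step, here and below, stand beside 22.7% lower and 17.9% higher among all tested genes, and each step holds few genes. Both subunits of the pyruvate carrier were called lower. MPC1 (ENSG00000060762, chr6:166364919-166383013, minus strand) had 9.22, 10.05 and 9.29 FPKM in siControl replicates 2, 3 and 4 and 6.44, 7.19 and 7.19 FPKM in the siSGK1 replicates. The groups did not overlap, and siSGK1 replicate 2 was the lowest library. The mean went from 9.52 ± 0.46 to 6.94 ± 0.43 FPKM (SD, n = 3 each), or 72.9% of siControl (log2 change -0.43, SE 0.06, adjusted p = 8.18e-04). MPC2, the larger in RNA level of this pair, went from 19.0 ± 0.39 to 17.0 ± 0.27 FPKM (log2 change -0.16, adjusted p = 0.016). Leaving out siControl replicate 3 or siSGK1 replicate 2 ended the MPC2 call (adjusted p = 0.079 and 0.057), and its sign turned under TPM scaling (0.04).

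In the pyruvate dehydrogenase complex, the E1 subunits, which decarboxylate pyruvate, were the ones called lower among 5 genes. PDHA1, the catalytic alpha subunit, went from 46.5 ± 0.81 to 40.9 ± 0.93 FPKM (log2 change -0.18, adjusted p = 0.0080), with a turned sign under TPM scaling (0.02). PDHB, the beta subunit, went from 16.8 ± 0.46 to 14.0 ± 0.32 FPKM (log2 change -0.26, adjusted p = 0.0025). In neither gene did the groups overlap. DLAT, the acetyltransferase core, had 11.9 ± 0.38 and 11.6 ± 0.13 FPKM, and the groups overlapped. DLD, the dihydrolipoamide dehydrogenase that this complex shares with others, had 12.5 ± 1.4 and 13.6 ± 0.73 FPKM (log2 change 0.12, adjusted p = 0.27). PDHX, which anchors that dehydrogenase to the core, had 8.60 ± 0.56 and 9.80 ± 0.89 FPKM (log2 change 0.18, adjusted p = 0.089). PDHX passed the threshold without siSGK1 replicate 4 (adjusted p = 0.046) and was called higher under total-read and TPM scaling. In the summed level, the 5 genes had 96.3 ± 2.9 FPKM in siControl and 89.8 ± 2.1 in siSGK1.

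Of the phosphatases that switch the complex on, PDP2 and PDPR were called lower and PDP1 was not (background 22.7% lower). PDP2 (ENSG00000172840, chr16:66878589-66895754, plus strand) had 2.39, 2.80 and 2.60 FPKM in siControl replicates 2, 3 and 4 and 1.62, 1.67 and 1.63 FPKM in the siSGK1 replicates. The siSGK1 libraries lay close together and all below the lowest siControl library. The mean fell from 2.59 ± 0.20 to 1.64 ± 0.027 FPKM (SD, n = 3 each), to 63.2% of siControl (log2 change -0.53, SE 0.07, adjusted p = 6.95e-04), from 399 to 607 reads per library. PDP1 (ENSG00000164951), the other catalytic subunit, had 5.29, 5.39 and 5.42 FPKM in siControl and 5.001, 5.45 and 4.51 FPKM in siSGK1. Its groups overlapped, since siSGK1 replicate 3 was the highest of the 6 libraries, and it was not called (log2 change -0.10, SE 0.07, adjusted p = 0.27). The ratio of PDP1 to PDP2 was 2.22, 1.93 and 2.09 in the siControl replicates and 3.08, 3.26 and 2.77 in the siSGK1 replicates. PDPR, the regulatory subunit of the phosphatase, went from 3.84 ± 0.091 to 3.21 ± 0.17 FPKM (log2 change -0.23, adjusted p = 0.015), and its call was lost without siSGK1 replicate 2 (adjusted p = 0.052). Of the 50-base words of the longest PDPR transcript, 38.3% also occur in other genes, so its reads may be shared.

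**Figure D3:**
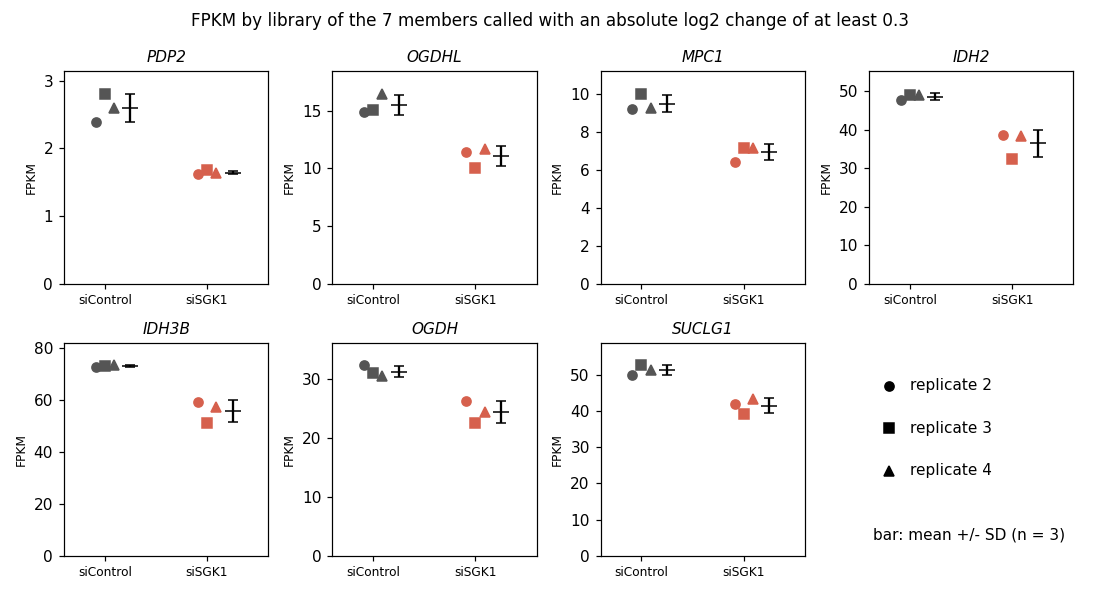
FPKM in each library (vertical axis, starting at 0) of the 7 genes called lower with a log2 change of at least 0.3 in size, in siControl (grey) and siSGK1 (red); circles, squares and triangles are replicates 2, 3 and 4, and bars are the mean with the SD of 3 libraries. In every panel the 3 siSGK1 libraries lie below the 3 siControl libraries.

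From citrate to alpha-ketoglutarate, 4 of 6 genes were called lower (background 22.7%): IDH2 and the 3 genes of the NAD-dependent isocitrate dehydrogenase. IDH2 (ENSG00000182054, chr15:90083045-90102504, minus strand), the mitochondrial NADP-dependent isocitrate dehydrogenase, had 47.6, 49.1 and 49.1 FPKM in siControl replicates 2, 3 and 4 and 38.7, 32.4 and 38.4 FPKM in the siSGK1 replicates. The siSGK1 libraries were all lower, replicate 3 most of all. The mean fell from 48.6 ± 0.84 to 36.5 ± 3.6 FPKM (SD, n = 3 each), to 75.1% (log2 change -0.41, SE 0.07, adjusted p = 0.0019).

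IDH3B (ENSG00000101365, chr20:2658395-2664219, minus strand) encodes a regulatory beta subunit of the NAD-dependent enzyme. It had 72.5, 72.8 and 73.3 FPKM in siControl and 59.1, 51.0 and 57.2 FPKM in siSGK1. The siControl libraries were nearly equal and the siSGK1 libraries spread below them. The mean fell from 72.9 ± 0.41 to 55.8 ± 4.2 FPKM, to 76.5% (log2 change -0.39, SE 0.06, adjusted p = 0.0011). IDH3G, the gamma subunit, went from 33.0 ± 1.1 to 28.2 ± 2.9 FPKM (log2 change -0.22, adjusted p = 0.034), and IDH3A, the catalytic alpha subunit, from 12.5 ± 0.63 to 10.8 ± 0.63 FPKM (log2 change -0.20, adjusted p = 0.024). Both of these calls lie near the threshold: without single libraries the log2 change ran from -0.15 to -0.30 for IDH3G and from -0.18 to -0.25 for IDH3A. IDH3G stayed called only without siSGK1 replicate 2 and had adjusted p-values of 0.051 to 0.106 without each of the other 5 libraries; IDH3A lost its call without siControl replicate 3 or 4 or siSGK1 replicate 3 or 4 (0.063 to 0.087). Exons of IDH3A overlap the opposite-strand gene ACSBG1 (0.11 FPKM) over 60.3% of the IDH3A exon bases. Of the 50-base words of the longest IDH3A transcript, 62.8% also occur in ACSBG1. How reads in this overlap were assigned is not known. Exons of IDH3G overlap SSR4 (67.8 FPKM), so reads of IDH3G and SSR4 may be mixed. CS, citrate synthase, had 37.3 ± 0.99 and 36.1 ± 2.2 FPKM, and ACO1, the cytosolic aconitase, 6.90 ± 0.21 and 6.70 ± 0.26 FPKM. The groups overlapped for both, and neither was called (log2 changes -0.05 and -0.04, which turned to 0.16 for each under TPM scaling).

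From alpha-ketoglutarate to succinate, 4 of 6 genes were called lower (background 22.7%), 3 of them in the alpha-ketoglutarate dehydrogenase complex. OGDH (ENSG00000105953, chr7:44606572-44709066, plus strand), its E1 subunit, had 32.3, 30.9 and 30.4 FPKM in siControl replicates 2, 3 and 4 and 26.2, 22.4 and 24.3 FPKM in the siSGK1 replicates. There was no overlap, and siSGK1 replicate 3 was the lowest. The mean fell from 31.2 ± 0.97 to 24.3 ± 1.9 FPKM, to 77.9% (log2 change -0.36, SE 0.06, adjusted p = 0.0022).

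OGDHL (ENSG00000197444, chr10:49734643-49762379, minus strand), a paralog of OGDH, had 14.9, 15.1 and 16.5 FPKM in siControl and 11.4, 10.05 and 11.7 FPKM in siSGK1. Again the groups were apart, with siSGK1 replicate 3 the lowest. The mean fell from 15.5 ± 0.87 to 11.04 ± 0.87 FPKM, to 71.3% (log2 change -0.47, SE 0.07, adjusted p = 8.76e-04). The longest transcripts of OGDH and OGDHL shared no 50-base word with each other or with any other gene. DLST, the succinyltransferase core of the complex, went from 47.3 ± 1.4 to 38.7 ± 1.0 FPKM (log2 change -0.29, adjusted p = 0.0012).

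Succinyl-CoA ligase joins the alpha subunit SUCLG1 to either of 2 beta subunits, the ATP-specific SUCLA2 or the GTP-specific SUCLG2. SUCLG1 (ENSG00000163541, chr2:84423523-84460045, minus strand) had 49.9, 52.7 and 51.4 FPKM in siControl and 42.0, 39.2 and 43.4 FPKM in siSGK1. The lowest siControl library exceeded the highest siSGK1 library, and siSGK1 replicate 3 was again the lowest. The mean fell from 51.3 ± 1.4 to 41.5 ± 2.2 FPKM, to 80.9% (log2 change -0.30, SE 0.05, adjusted p = 0.0019). SUCLG2 (ENSG00000172340, chr3:67360460-67654614, minus strand) had 7.51, 8.30 and 8.88 FPKM in siControl and 8.96, 9.38 and 8.71 FPKM in siSGK1. Its groups overlapped, because siSGK1 replicate 4 lay below siControl replicate 4, and it was not called (log2 change 0.13, SE 0.07, adjusted p = 0.16). SUCLA2 had 6.35 ± 0.56 and 5.67 ± 0.46 FPKM, with overlapping groups (log2 change -0.15, adjusted p = 0.16, turned to 0.04 under TPM scaling).

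Both genes from fumarate to oxaloacetate were called lower (background 22.7%). MDH2, the mitochondrial malate dehydrogenase, went from 50.5 ± 1.6 to 42.0 ± 2.7 FPKM (log2 change -0.26, adjusted p = 0.0060). FH, fumarate hydratase, went from 45.3 ± 0.83 to 41.2 ± 1.3 FPKM (log2 change -0.14, adjusted p = 0.034). The FH call held without siSGK1 replicate 2 and was lost without each of the other 5 libraries (adjusted p-values of 0.051 to 0.108), and its log2 change was 0.004 by total reads and 0.07 by TPM. Among the 16 called genes FH had the change of smallest size.

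Of the 7 tested genes for entry, exit and the shuttle, 0 were called by the main limma fit to FPKM. At an unadjusted limma p under 0.05, GLUD1 and GOT1 were lower and 0 were higher. GLUD1 was called lower with a level filter of 5 FPKM (limma adjusted p = 0.049) or without siControl replicate 4 (0.037). GOT1 was called lower without siSGK1 replicate 2 (limma adjusted p = 0.033). A voom fit to recovered reads scaled by their totals called GOT2, ME2, PC and PCK2 higher, beside 39.3% of all tested genes. With the deposited scaling, voom called none of these 4 and called GOT1 lower. PC, pyruvate carboxylase, had 10.6 ± 0.20 and 10.7 ± 0.86 FPKM, and ME2, a mitochondrial malic enzyme, 2.80 ± 0.11 and 2.88 ± 0.081 FPKM. PCK2, the mitochondrial phosphoenolpyruvate carboxykinase, had 16.2 ± 0.65 and 17.0 ± 1.5 FPKM. The groups of all 3 overlapped. GLUD1, glutamate dehydrogenase, had 21.9 ± 0.78 and 20.0 ± 0.25 FPKM without overlap (log2 change -0.13, adjusted p = 0.052), and 36.2% of the 50-base words of its longest transcript occur in other genes, GLUD2 among them. ME3, the other mitochondrial malic enzyme, was read at 0.0097 to 0.110 FPKM. In the malate-aspartate shuttle, GOT2, the mitochondrial aspartate aminotransferase, had 135 ± 1.6 and 132 ± 4.7 FPKM, the highest level of the 32 genes. MDH1, the cytosolic malate dehydrogenase, had 74.3 ± 2.2 and 71.3 ± 0.52 FPKM and GOT1, the cytosolic aminotransferase, 31.4 ± 0.36 and 28.4 ± 2.1 FPKM; their groups did not overlap, yet neither was called (adjusted p = 0.29 and 0.075). The summed level of the 3 shuttle enzymes was 96.2% of siControl and that of the entry and exit genes 98.3%. The genes from citrate to alpha-ketoglutarate summed to 82.4% and those from there to succinate to 81.5%. Mitochondrial carriers, given with the neighbouring genes, were in none of these sums. These percentages are on the deposited scale, on which the summed FPKM of all genes was also lower in siSGK1.

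The scaling of a library cancels in a ratio of FPKM between genes of that library, and 12 such pairs were compared. The log2 ratios below are of FPKM + 0.5, so for genes of low level they also depend on the added constant: the difference for PDP1 to PDP2 was 0.43 with 0.5, 0.52 with 0.1 and 0.35 with 1. With 3 libraries a group the exact two-sided permutation test cannot give a p below 0.1, and after Benjamini-Hochberg adjustment over the 12 pairs the smallest value was 0.133, so no pair could pass. The groups did not overlap for 9 pairs. No share for other gene pairs was computed, so this count has no matched background. Among all tested single genes, 28.8% lay lower and 24.6% higher in siSGK1 without overlap. The log2 ratio of PDP1 to PDP2 was higher in each siSGK1 library than in any siControl library, at 1.35 ± 0.11 against 0.93 ± 0.084 (SD, n = 3 each; exact permutation p = 0.1). That of SUCLG1 to SUCLG2 was lower in each siSGK1 library, at 2.57 ± 0.095 and 2.14 ± 0.13 (exact permutation p = 0.1), and the plain FPKM ratio was 6.26 ± 0.43 and 4.62 ± 0.41 in turn. The other 7 pairs without overlap differed by less: SUCLA2 to SUCLG2 by -0.28, MPC1 to MPC2 by -0.27, DLAT to PDHX by -0.21, MDH1 to MDH2 by 0.21, IDH3B to IDH3G by -0.16, GOT1 to GOT2 by -0.11 and PDHA1 to PDHB by 0.07. OGDH to OGDHL, IDH3A to IDH3G and ME2 to ME3 overlapped between groups (exact permutation p = 0.2, 0.7 and 1).

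**Figure D4:**
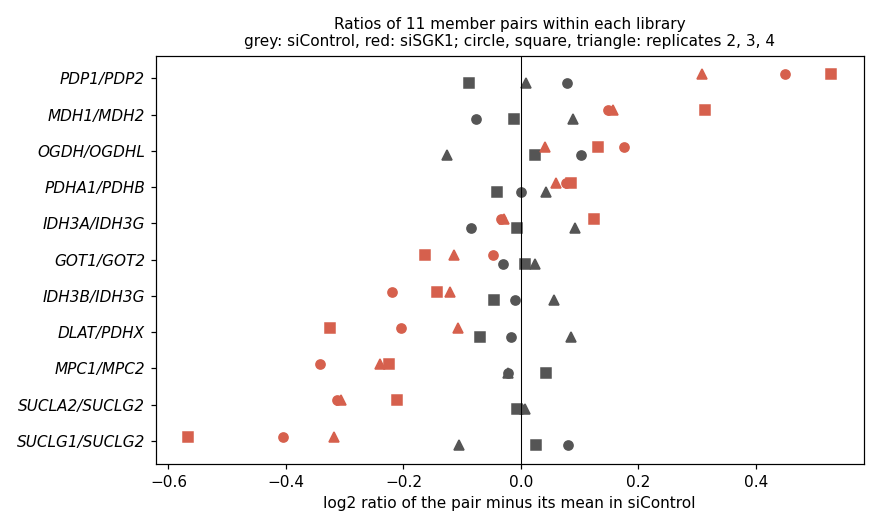
Log2 ratio of the FPKM + 0.5 of 11 gene pairs in each library, less the pair's mean in siControl (horizontal axis); grey points are siControl and red points siSGK1, with circles, squares and triangles for replicates 2, 3 and 4. PDP1/PDP2 lies farthest to the right and SUCLG1/SUCLG2 farthest to the left in siSGK1; the ME2/ME3 pair is left out because ME3 had 1 to 14 reads.

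Of the 11 tested genes with a mean of at least 30 FPKM, 8 were called lower and all 11 had a negative log2 change. Of the 20 with 1 to 30 FPKM, 8 were called lower. The share called among all tested genes at these levels was not counted, so these counts have no matched background. Across the 31 genes Spearman's rho of the log2 change with mean FPKM was -0.18, beside -0.16 across all tested genes, and with gene length 0.12, beside 0.08; these genes share libraries and are not independent. Reads of some genes may be shared beyond the cases named above. Exons of MPC2, PDHX and PC overlap the tested opposite-strand genes DCAF6, APIP and LRFN4, and 23.7% of the 50-base words of PDHA1, 21.0% of those of GOT1, 19.4% of those of CS and 17.3% of those of SUCLG2 occur in another gene.

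Short sites in the 3' untranslated regions (UTRs) are shown because an earlier search of these same libraries had found that genes with the letters CTATGCAA there were lower in siSGK1, so their counts are no independent evidence. The sites were searched on the transcript strand of the longest annotated UTR of each gene (GENCODE 29). CTATGCAA occurred in 2.78% of 10272 tested genes with a UTR, whose median log2 change was -0.15 against -0.005 in the rest, and in 3 of the 31 tested members. Its parts occurred in more genes: CTATGCA in 8.51%, with 4 members, and TATGCAA in 11.4%, with 5 members, each count including the genes that hold the longer site. Genes with CTATGCA had a median log2 change of -0.08, and those with TATGCAA, the form that MPC1 and PDHB hold, one of -0.03. The windows below run 5′ to 3′ on the transcript strand, with the matched letters in capitals (GRCh38).
PDP2 (chr16:66886378-66886407, plus): aggacccttttCTATGCAAtatcctaactt
IDH2 (chr15:90083096-90083125, minus): aaaaaattgctCTATGCAAgttttttagcc
ME2 (chr18:50950625-50950654, plus): taggcgcaagtCTATGCAAccacccagcta
MPC1 (chr6:166365191-166365220, minus): gtagctcaaaaTATGCAAttaatttaataa
PDHB (chr3:58428096-58428125, minus): tccctatgcctTATGCAAagattctagagg
Of these 5 genes, PDP2, IDH2, MPC1 and PDHB were called lower and ME2 was not called (log2 change 0.04). PDP2 holds CTATGCA once more, farther along the same UTR, and PDP1 holds CTATGCA alone. OGDHL, IDH3B, OGDH and SUCLG1, also among the 7 genes above, hold none of the 3 in the UTR searched.

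Promoters are shown for genes of the later steps that were picked because they were called lower and hold the same letter motif. Their sharing it is thus no independent evidence, and a common control was not tested. RefSeq (GRCh38.p14) gave the 250 bases before and 50 after the start for 30 of the 32 genes, all but OGDH and PDP1. Only a single listed start per gene was searched. Some windows, such as that of IDH2 (chr15:90100572-90100871), lie inside the annotated gene, so other starts were not covered. Among 5 motifs searched on both strands, CCGGAAG, the core read by ETS factors such as GABP, was found in 5 of the 30, beside 10.7% of 27305 promoters. DLST, IDH3B, IDH3G and MDH2 were called lower and ME2 was not. The other called genes with a promoter lacked it: FH, IDH2, IDH3A, MPC1, MPC2, OGDHL, PDHA1, PDHB, PDP2, PDPR and SUCLG1. The 120 bases before each start of the 4 called genes follow, 5′ to 3′ on the gene's strand, with the motif or its reverse complement in capitals.
DLST (chr14:74881796-74881915, plus): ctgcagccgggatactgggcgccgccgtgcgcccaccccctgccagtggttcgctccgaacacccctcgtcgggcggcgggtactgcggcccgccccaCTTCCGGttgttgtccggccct
IDH3B (chr20:2664217-2664336, minus): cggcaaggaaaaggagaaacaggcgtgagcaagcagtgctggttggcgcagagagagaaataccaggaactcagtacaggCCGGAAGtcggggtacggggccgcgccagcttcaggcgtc
IDH3G (chrX:153794376-153794495, minus): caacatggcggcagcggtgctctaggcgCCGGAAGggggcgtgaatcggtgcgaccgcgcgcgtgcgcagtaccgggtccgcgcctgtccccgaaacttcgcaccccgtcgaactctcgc
MDH2 (chr7:76047986-76048105, plus): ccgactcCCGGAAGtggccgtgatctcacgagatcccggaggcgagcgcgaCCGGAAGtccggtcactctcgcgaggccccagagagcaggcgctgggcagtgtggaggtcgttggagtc
The motif begins 22 bases before the start in DLST, 40 in IDH3B and 92 in IDH3G, and MDH2 has it at both 113 and 69 bases before. The E-box CACGTG was found in 4 of the 30 promoters, those of ME3, OGDHL, PDHB and PDP2, beside 7.44% of all. The SP1 box GGGCGG was in 20 of the 30, beside 44.6%, the estrogen-related receptor letters AAGGTCA in SUCLA2 alone, beside 3.97%, and the NRF1 core CGCATGCG in 0 of the 30, beside 598 of the 27305. A match describes letters and not a bound site, and no match says nothing of a factor outside the window.

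Around the 32 genes, 53 genes of neighbouring reactions and regulators were listed, of which 43 were tested. In siSGK1, 13 of the 43 were called lower, 8 higher and 22 not, with a median log2 change of -0.06. These shares, 30.2% lower and 18.6% higher, stand beside 22.7% and 17.9% of all tested genes, and the small groups below are set against the same background. Among the PDH kinases, which inactivate pyruvate dehydrogenase, PDK2 was called lower at 5.85 ± 0.080 and 4.96 ± 0.53 FPKM (log2 change -0.22, adjusted p = 0.041). That call held without siSGK1 replicate 4 and was lost without each of the other 5 libraries (adjusted p-values of 0.055 to 0.105). PDK3 had 11.4 ± 0.39 and 10.7 ± 0.12 FPKM and was not called, PDK1 lay below the level tested at 0.73 ± 0.056 and 0.78 ± 0.028 FPKM, and PDK4 was listed at 0 in all 6 libraries.

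Succinate dehydrogenase, which oxidises succinate between the steps above, had 3 of 8 subunit and assembly genes called lower and 0 higher. SDHB, its iron-sulfur subunit, fell from 44.2 ± 0.66 to 34.6 ± 0.87 FPKM (log2 change -0.35, adjusted p = 3.41e-04), and SDHD, a membrane anchor, from 35.7 ± 1.4 to 29.7 ± 0.88 FPKM (log2 change -0.26, adjusted p = 0.0030; 0.345 under TPM scaling). The third, SDHA, the flavoprotein subunit, lies outside the rule for named genes and was chosen after its values were seen (log2 change -0.16). Of 8 tested carriers 3 were called lower and 2 higher (background 22.7% and 17.9%). Of these, SLC25A12 was lower (log2 change -0.17), and SLC25A13 and SLC25A1 were higher (log2 change 0.25 each). These 3 lie outside the rule for named genes and were chosen after their values were seen. SLC25A11, which exchanges alpha-ketoglutarate for malate, fell from 71.6 ± 2.7 to 52.5 ± 4.7 FPKM (log2 change -0.45, adjusted p = 0.0012), and SLC25A3, the phosphate carrier, from 75.6 ± 0.98 to 62.6 ± 1.2 FPKM (log2 change -0.27, adjusted p = 9.76e-04; 0.101 under TPM scaling). Among enzymes making acetyl-CoA from other sources, ACSS2, the cytosolic and nuclear acetyl-CoA synthetase, fell from 18.4 ± 0.58 to 13.0 ± 1.2 FPKM (log2 change -0.49, adjusted p = 8.76e-04), while ACAT1, a mitochondrial thiolase, rose from 8.77 ± 0.61 to 10.6 ± 0.55 FPKM (log2 change 0.26, adjusted p = 0.011).

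Some side enzymes went the other way. DHTKD1, the E1 subunit of the related alpha-ketoadipate dehydrogenase of lysine breakdown, rose from 9.52 ± 0.19 to 12.9 ± 0.38 FPKM, a log2 change of 0.42 (SE 0.05, adjusted p = 2.36e-04). All 3 siSGK1 libraries, at 12.5, 13.1 and 13.2 FPKM, lay above the siControl libraries, at 9.39, 9.74 and 9.44 FPKM, while OGDH and OGDHL were below. D2HGDH, which oxidises D-2-hydroxyglutarate to alpha-ketoglutarate, rose from 2.82 ± 0.10 to 3.62 ± 0.075 FPKM (log2 change 0.31, adjusted p = 0.0031). Of 9 tested regulators of mitochondrial genes, 3 were called lower and 3 higher (background 22.7% and 17.9%). ESRRA, the estrogen-related receptor alpha, fell from 96.8 ± 1.9 to 77.0 ± 6.5 FPKM (log2 change -0.33, adjusted p = 0.0034), and PPARGC1B, a coactivator of that receptor, from 2.93 ± 0.13 to 2.17 ± 0.051 FPKM (log2 change -0.36, adjusted p = 0.0024; not called under TPM scaling). The other 4 called regulators were chosen after their values were seen: GABPA was lower (log2 change -0.37, adjusted p = 0.019), and NRF1, MYC and HIF1A were higher (log2 changes of 0.16, 0.15 and 0.19).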

How the data were processed

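RNA of 6 ME180 cultures was compared, siSGK1 (3) against siControl (3), with groups taken from the labels. The deposited values are FPKM per gene and library. The submitters' processing notes list bcl2fastq 2.19, featureCounts 1.5.0-p3 and HISAT2 2.0.5 with hg19 as build, yet 97.6% of 57980 shared gene identifiers had the GRCh38 positions of GENCODE 29, so positions are read as GRCh38. No source used here gives the strand setting, so overlapping genes may share reads. FPKM times gene length gave whole reads for 100% of values (tolerance 0.001). The library size the authors' FPKM imply was 0.954, 0.952 and 0.967 times the read total in siControl replicates 2, 3 and 4. In the siSGK1 replicates it was 1.035, 1.093 and 1.039 times the read total. The deposited scaling thus sets every siSGK1 library lower against every siControl library than total-read scaling does.

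Values were tested as log2(FPKM + 0.5), a scale that understates changes of low genes, with limma 3.58.1 (R 4.3.3, two-sided, with empirical Bayes moderation and an intensity trend) over 11945 genes with a mean of at least 1 FPKM, with Benjamini-Hochberg adjustment and calls under 0.05. Adjusted p-values in the text come from that limma fit wherever no other setting is given. Sequences were searched with Python 3.11.15.

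The members, lists and tests were chosen with earlier results of these data known. Values per library are given for called members with a log2 change of at least 0.3 in size and for pairs whose ratios differ by 0.3 without overlap, and other members by mean or range; the 10 neighbouring genes with the smallest p and PDK1 to PDK4 are named. Alternatives were other pseudocounts, level filters and scalings, voom on recovered reads, no trend, a replicate block and leaving out each library.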

Additional observations from a re-analysis of the deposited data

How the results depend on the processing

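The count of 16 lower members stayed within 1.5 times under the other pseudocounts, level filters, no trend, quantile normalization and each left-out library, where it ran from 12 to 16, and became 10 by total reads, 7 by TPM and 9 by voom on recovered reads. The count of higher members, 0, became 1 (quantile), 6 (total reads), 10 (TPM), 7 (voom), 1 (voom with the deposited scaling, chosen after seeing the data) and 0 to 1 without single libraries. Over all tested genes the shares called lower and higher were 19.9% and 20.9% (quantile) and 12.9% and 36.1% (total reads). They were 9.80% and 47.3% (TPM), 13.4% and 39.3% (voom) and 24.9% and 20.2% (voom with the deposited scaling). Shares under the remaining settings were not counted. The median log2 change of -0.15 became -0.11, -0.020, 0.041 and -0.022 under quantile, total-read, TPM and voom. Signs turned under TPM for MPC2 (0.038), PDHA1 (0.020), DLAT (0.16), PDP1 (0.090), GLUD1 (0.075), CS (0.155), ACO1 (0.16), SUCLA2 (0.041), FH (0.067), MDH1 (0.145), GOT1 (0.057), GOT2 (0.17) and PDK3 (0.11). By total reads they turned for DLAT (0.099), PDP1 (0.027), GLUD1 (0.012), CS (0.091), ACO1 (0.092), FH (0.0040), MDH1 (0.081), GOT2 (0.10) and PDK3 (0.051). By voom the same 9 gave 0.10, 0.026, 0.014, 0.094, 0.097, 0.0049, 0.083, 0.11 and 0.055. Under quantile normalization CS (0.035), MDH1 (0.026) and GOT2 (0.11) turned. These scalings also move the median of all genes. Left-out libraries took PC from -0.030 to 0.078, CS from -0.085 to 0.0016, the log2 ratio of ME2 to ME3 from -0.068 to 0.070 (-0.064 at a pseudocount of 0.1) and that of IDH3A to IDH3G from -0.031 to 0.066.

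The shared replicate numbers showed no sign of pairing: same-numbered deviations correlated at 0.12, 0.01 and -0.10, and different-numbered ones at -0.16 to 0.15. Such correlations cannot tell whether the cultures were run as matched sets. With the replicate number as a block, 15 members were lower and 1 higher (PDHX, adjusted p = 0.040), and FH lost its call (adjusted p = 0.081). Labels do not say whether the repeats were separate passages. The limma p-values set each group difference against a variance among these cultures that is moderated over genes, and speak only for these cultures. ME3, at 1 to 14 reads, was too shallow to compare.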
